A study of Mus musculus with 6 samples.

Results

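The comparison described here set mock Per2m/m mouse embryonic fibroblasts against mock wild type fibroblasts. Embryonic fibroblasts are connective tissue cells grown from embryos, and Per2m/m is the label of cells mutant in the clock gene Per2. The series held 6 single-colour (Cy3) Agilent arrays of total RNA, covering wild type, Per2m/m and Clk/Clk cells, each once as mock cells and once transfected with the H-Ras and SV40T vector. The 2 arrays compared were chosen by their titles, as the mock arrays of the wild type and Per2m/m genotypes. Both cultures were of strain ICR, kept in serum-containing medium and labelled as mock, and neither carried the H-Ras and SV40T vector. The sample labels leave out where in Per2 the alteration lies, what the mock cells received, how many embryos stood behind a culture, or at what time of day or after what synchronisation the cells were taken. Each group was 1 array, so there were no replicates, no difference below has an error between cultures, and no test was made. Both arrays lay on 1 slide, wild type in slide row 1 and Per2m/m in slide row 2, so slide row, culture and genotype cannot be told apart.

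PER2 is a repressor of the circadian clock, the cell-autonomous oscillator that runs in fibroblasts as in most tissues. The activators CLOCK and BMAL1 (gene Arntl) bind E-boxes, short DNA motifs in the promoters of the Per and Cry genes and of output genes such as Dbp, and the PER and CRY proteins then shut this activity off. A second loop of nuclear receptors, the repressors REV-ERB (Nr1d1, Nr1d2) and the activators ROR, acts on Arntl.

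Gene values are levels, meaning log2 of the background-subtracted spot intensity minus the array's 75th percentile, and differences are mock Per2m/m minus mock wild type on that log2 scale. A ratio was taken only where the brighter of both arrays was well above background, as marked by the scanner software, which left 16150 of 17433 named genes. Of these, 14919 were well above background on both mock arrays, 811 on the wild type array alone and 420 on the Per2m/m array alone. For a gene seen on 1 array the ratio is a bound, written as at least N-fold, taken against the lowest level well above background on the dimmer array or the gene's own level there, whichever was higher. Repeated spots of a probe on 1 array gave a spread of 0.08 for a ratio of both arrays, which covers spot noise only.

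The mock arrays were close to each other for bright genes. Across the 14220 genes well above background on all 3 mock arrays, levels correlated at 0.988 between wild type and Per2m/m, against 0.947 between wild type and Clk/Clk and 0.940 between Per2m/m and Clk/Clk. These values are a description across genes of single arrays, and genes are not independent replicates. The share of spots well above background was 57.3% on the wild type and 54.3% on the Per2m/m array. All 13 measured fibroblast markers were well above background on both, so the defining markers of the labelled cell type were present. Vim (vimentin) had 8.28 in wild type against 8.35 in Per2m/m cells. Col1a1 (type I collagen) had 7.87 and 7.75, and Thy1 6.87 and 7.11. Not all markers were level. Of the 13, 1 was higher by 2-fold or more and 2 were lower, against 4.73% and 4.88% of all genes. The list median was 0.04, and the largest difference was that of Lum (lumican), at −3.15.

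Against mock wild type cells, 764 genes (4.73%) stood 2-fold or more higher in mock Per2m/m cells and 788 genes (4.88%) stood 2-fold or more lower, 9.61% in all. At 4-fold or more, 281 were higher and 227 lower. The median difference over all genes was 0.02, its SD 0.76, and the central 90% of genes lay between −0.99 and 0.95. Genes 2-fold or more apart were mostly dim. With genes split into 3 groups of equal size by mean level over the 6 arrays, 22.98% of the dimmest group were 2-fold or more apart, against 4.05% of the middle and 1.80% of the brightest group. Among genes well above background on both arrays 441 were higher and 383 lower. With genes seen on 1 array set at their bound, 750 were higher and 507 lower. With another background correction (normexp, with an offset of 50 added to every spot) 295 were higher (1.83%) and 202 lower (1.25%). The split of higher against lower genes thus depends on how dim spots are treated. Where a gene 2-fold or more apart had further probes, 88.4% of these 251 probes gave the same direction. Only 151 of the 251 (60.2%) were also 2-fold or more apart in that direction, and 6 were 2-fold or more apart in the opposite direction.

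**Figure D1:**
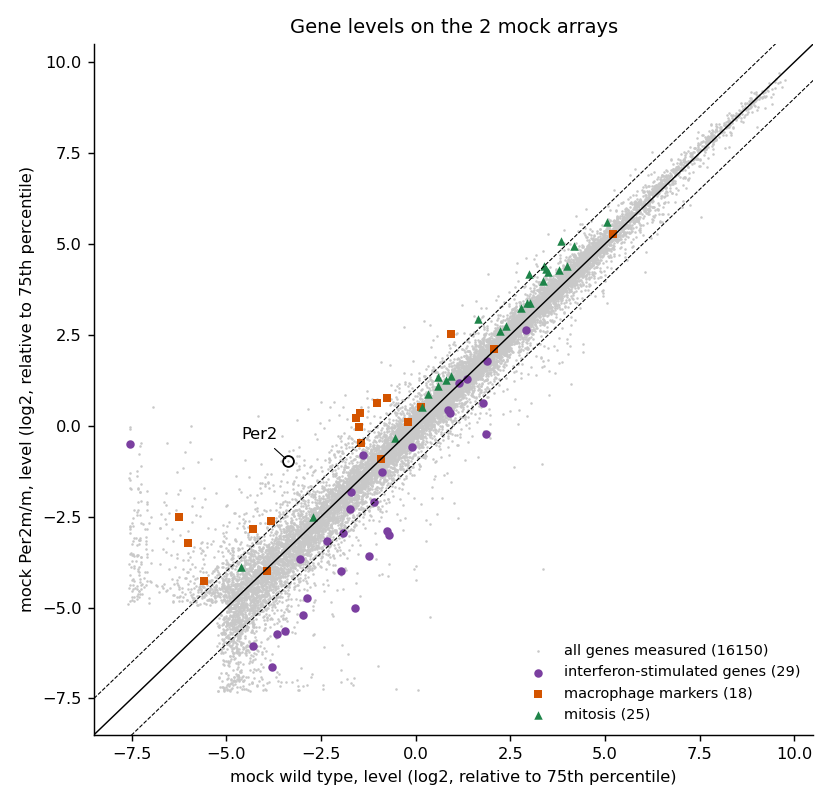
Level of each measured gene in mock wild type (x axis) and mock Per2m/m cells (y axis), in log2 relative to the array's 75th percentile, 1 array each. The solid line marks equal levels and dashed lines a 2-fold difference; interferon-stimulated genes lie mostly below the line, macrophage markers and mitosis genes on or above it, and the scatter is widest among dim genes.

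Per2 itself was brighter in the mutant cells. Its probe, on chromosome 1 at 93313046 to 93313105 (build mm9) and at position 5290 of its transcript, had a level of −3.36 in wild type, −0.97 in Per2m/m and −3.91 in Clk/Clk mock cells. Per2 was thus 5.25-fold higher in mock Per2m/m than in mock wild type cells, and highest of the 3 mock arrays. In transfected cells the levels were −2.38 in wild type and −2.82 in Per2m/m, so the difference there was −0.44. No label places the probe inside or outside the altered part of the gene, so these values do not check the genotype. Clock, read on chromosome 5 at 76641377 to 76641436, differed little, at 0.50 in wild type against 0.35 in Per2m/m cells.

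Many clock repressor and output genes, though not all, are known targets of CLOCK and BMAL1, so the E-boxes of these targets are given first. Among 15 measured E-box targets 12 had a promoter window in RefSeq (GRCm38.p6, 250 bases before to 50 after the start of the transcript). The motif CACGTG, searched on both strands, was found for 5 of these 12 genes (41.7%), against 8.09% of all 27025 genes with a window. The related motif CACGTT was found for 3 of 12, against 5.44% of all genes with a window. The list was made of genes known as E-box targets, so these shares describe the list and are not a result of the arrays. The stretches below are those of the E-box targets with the largest differences in each direction that hold CACGTG, which is in capitals, with 20 flanking bases, 5′ to 3′ on the strand of the gene. They come from chr6:145865548-145865593 (minus strand), chr3:95882247-95882364 (minus), chr15:81802526-81802571 (plus) and chr11:69098763-69098808 (plus). Bhlhe41, Ciart and Tef had lower levels in Per2m/m cells and Per1 a slightly higher one. Per2, the E-box target with the largest higher difference (2.39), had no promoter window, so its promoter was not searched.
Bhlhe41: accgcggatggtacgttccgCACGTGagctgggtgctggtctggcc
Ciart: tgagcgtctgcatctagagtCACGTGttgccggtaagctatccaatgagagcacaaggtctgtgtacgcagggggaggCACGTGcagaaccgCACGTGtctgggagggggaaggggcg
Tef: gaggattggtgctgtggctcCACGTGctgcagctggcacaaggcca
Per1: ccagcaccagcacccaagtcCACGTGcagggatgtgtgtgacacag
A match describes the letters of the window and is not evidence of binding. Ciart held 3 matches, the others 1 each.

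Clock repressors other than Per2 were mostly lower or level in mutant cells. Of 10 measured repressor genes 1 (Per2) was higher by 2-fold or more and 3 were lower, against 4.73% and 4.88% of all genes, with a list median of −0.31 beside 0.02 for all genes. Bhlhe41, which encodes the E-box repressor DEC2, had a level of −3.55 in wild type and was not well above background in Per2m/m cells at −5.06, at least 2.70-fold lower. Nr1d2, which encodes REV-ERB beta, had 0.84 and −0.57, 2.67-fold lower. Its second probe differed by only −0.18, so its probes disagree in size. Ciart, a repressor that binds at BMAL1 sites, had −2.82 and −3.98, 2.22-fold lower. These 3 repressors were lower in Per2m/m cells, but the size is a bound for Bhlhe41 and depends on the probe for Nr1d2. On the Clk/Clk mock array Bhlhe41 had −3.99, Nr1d2 0.65 and Ciart −4.56, the last not well above background, so the Per2m/m array was the lowest of the mock arrays for Bhlhe41 and Nr1d2 and lay between the others for Ciart. With normexp 1 of the 10 repressor genes was 2-fold lower and the list median was −0.17.

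The remaining repressors were less than 2-fold apart. Per3, a paralogue of Per2, had −2.91 in wild type against −3.65 in Per2m/m cells, a difference of −0.74. Bhlhe40 (DEC1) had 0.99 and 0.49. The cryptochrome genes were level, with Cry1 at −3.55 and −3.57 and Cry2 at 2.22 and 2.11. Per1 had 1.83 and 1.99, and Nr1d1 (REV-ERB alpha) 0.56 and 1.02, a difference of 0.47 in the direction opposite to that of its paralogue Nr1d2.

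None of the 5 measured activators was 2-fold apart, and their median difference was 0.09. Arntl, which encodes BMAL1, had 1.31 in wild type against 2.03 in Per2m/m cells, 1.64-fold higher, and its paralogue Arntl2 had 0.38 and 0.98. Rora, an activator of Arntl, had −0.48 and −1.43, 1.94-fold lower.

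Clock output genes stayed within 2-fold in all 12 measured, with a median of −0.04. Dbp, a transcription factor and classical E-box target, came closest, with 3.21 in wild type, 2.24 in Per2m/m and 2.04 in Clk/Clk mock cells, a difference of −0.97 that a second probe gave as −1.02. Wee1, a kinase that delays mitosis, had 1.27 and 0.61, and Tfrc, the transferrin receptor, 0.40 and 1.26. Genes for the turnover of clock proteins, the casein kinases and F-box proteins that mark PER and CRY for decay, were also within 2-fold in all 12 measured, from −0.68 for Fbxl21 to 0.15 for Csnk2b. Over the 15 E-box targets, which share most members with the repressor and output lists, 11 were below 0 and the median was −0.30.

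In transfected cells, on arrays the mock comparison did not use, the Per2m/m minus wild type difference was 1.53 for Bhlhe41, 1.29 for Nr1d2 and 0.87 for Ciart, the reverse of mock cells, and 2.19 for Dbp. More genes were apart in transfected cells, where 16.2% of 15823 genes were higher in Per2m/m by 2-fold or more and 17.8% were lower, 34% in all. On the transfected Per2m/m array the Y-linked Ddx3y and Eif2s3y and the X-linked Xist, all seen in the mock Per2m/m culture, were not well above background, and their part in these differences was not tested.

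**Figure D2:**
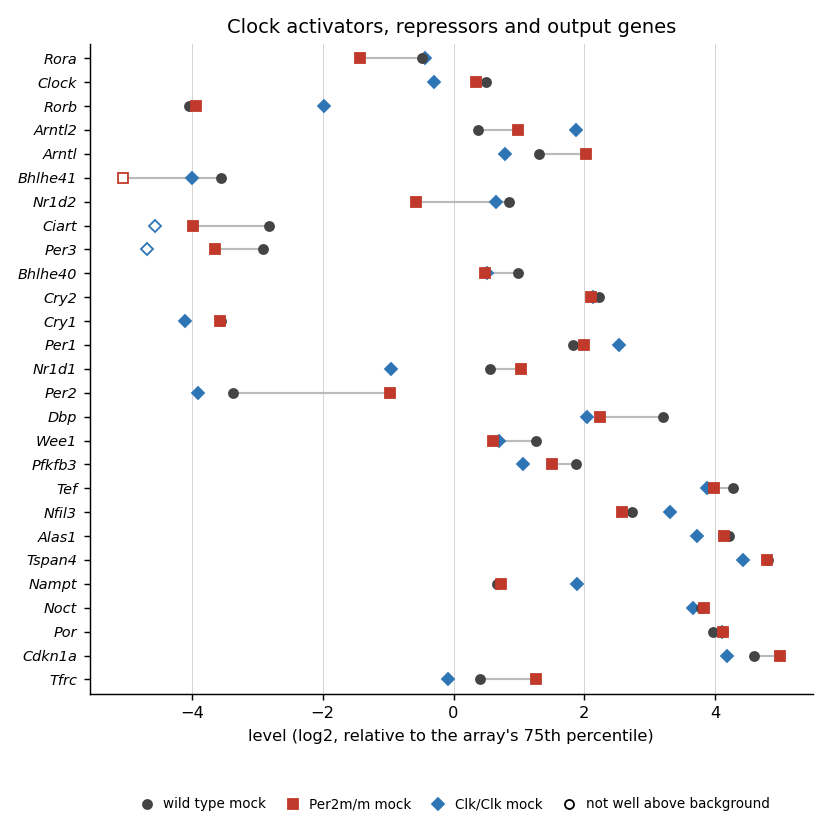
Levels of clock activators (Rora to Arntl), repressors (Bhlhe41 to Per2) and output genes (Dbp to Tfrc) on the 3 mock arrays, 1 array each, in log2 relative to the array's 75th percentile; open symbols are not well above background. Per2 has the widest step between wild type (−3.36) and Per2m/m (−0.97), and Bhlhe41, Nr1d2, Ciart and Dbp lie to the left in Per2m/m cells.

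Among lists with at least 5 measured members, interferon-stimulated genes had the lowest median. That rank was lost in 3 settings: with normexp it went to the aryl hydrocarbon receptor genes (−0.50), among genes well above background on both arrays to matrix proteases (−0.61) and without the filter on dim probes to sex-linked genes (−1.45). These genes carry the antiviral program that interferons switch on in a cell. Of 29 measured members (33 were kept after the filter on dim probes, of 35 listed), 14 were lower by 2-fold or more and 1 was higher, against 4.88% and 4.73% of all genes. The median difference was −0.99 and 26 of 29 were below 0. The Per2m/m array was the lowest of the 3 mock arrays for 26 of 29 and the Clk/Clk array the highest for 28 of 29. Summed over the list on the linear scale, in units of the array's 75th percentile, the level was 33.0 in wild type, 23.4 in Per2m/m and 554 in Clk/Clk mock cells.

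Among the effectors, Oasl1, an inhibitor of IRF7 translation, had a level of −1.60 in wild type and was not well above background in Per2m/m cells, at least 10.4-fold lower. Oas1a, which makes the activator of RNase L, had −0.71 and −3.01, 4.94-fold lower. Isg15, a ubiquitin-like modifier read on chromosome 4 at 155573649 to 155573708 (mm9), had 1.85 and −0.22, 4.21-fold lower, and its second probe differed by −2.67. Usp18, which removes ISG15, was 5.05-fold lower, Xaf1 4.44-fold, Ifit3, which binds viral RNA with its relatives, 4.06-fold, Ifi44 3.64-fold and Bst2 (tetherin) 2.22-fold. Ifit1 was at least 3.99-fold lower, Oasl2 at least 2.91-fold and Mx2 at least 2.26-fold, each not well above background in Per2m/m cells. Rsad2 (viperin) was 3.39-fold lower by its measured value, but its bound was at least 1.60-fold.

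Among regulators of this program, Irf7, which amplifies the response, was at least 2.48-fold lower. Irf9 had 0.92 in wild type against 0.35 in Per2m/m cells, Stat2 0.85 and 0.42, and Irf1 1.14 and 1.16. Of the sensors of viral RNA, Ddx58 (RIG-I) had 1.89 and 1.78 and Ifih1 (MDA5) −1.75 and −2.29. The exception in the list was Mx1, a GTPase that blocks influenza virus, read on chromosome 16 at 97668644 to 97668703 (mm9). Mx1 had −7.54 in wild type, where it was not well above background, −0.50 in Per2m/m and −3.41 in Clk/Clk mock cells, and was at least 38.3-fold higher in Per2m/m than in wild type cells. Mx1 was thus the only member of the list 2-fold or more higher, and it was also at least 9.72-fold higher in transfected Per2m/m cells.

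Promoters of interferon-stimulated genes often hold the interferon-stimulated response element. The pattern GAAA, any 2 bases, GAAA, which is part of that element and was picked after the values had been seen, was searched on both strands in the same RefSeq windows, with overlapping matches counted. It was found in 13 of 22 members with a window (59.1%) and in 7 of the 12 lower members with one, against 3.99% of all genes with a window. Windows of 3 members with large lower differences are shown with the matches in capitals. They come from chr5:120907526-120907565 (minus strand), chr19:34640765-34640833 (plus) and chr4:156200855-156200916 (minus) of GRCm38.p6, and Ifit1 carries the pattern on the opposite strand, so its capitals read TTTC, 2 bases, TTTC.
Oas1a: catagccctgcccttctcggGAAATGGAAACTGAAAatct
Ifit1: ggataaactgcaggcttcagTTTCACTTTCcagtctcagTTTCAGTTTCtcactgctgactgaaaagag
Isg15: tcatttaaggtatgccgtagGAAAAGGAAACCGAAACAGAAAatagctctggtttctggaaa
The matches overlap in Oas1a and Isg15 and stand apart in Ifit1. The pattern was about as frequent in lower members as in the whole list.

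In transfected cells the direction of the list was the reverse, with 14 of 29 measured members higher in Per2m/m by 2-fold or more, 4 lower and a median of 0.88. Isg15 had a difference of 3.36 there, Oasl1 of 4.03 and Bst2 of 2.61. In mock cells the list median was −0.83 with 13 members lower when the dim array was set at its bound, and −0.49 with 7 lower under normexp. Among the 22 members well above background on both mock arrays, which leaves out those that entered through 1 array alone, 8 were lower, 0 higher and the median was −0.59.

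**Figure D3:**
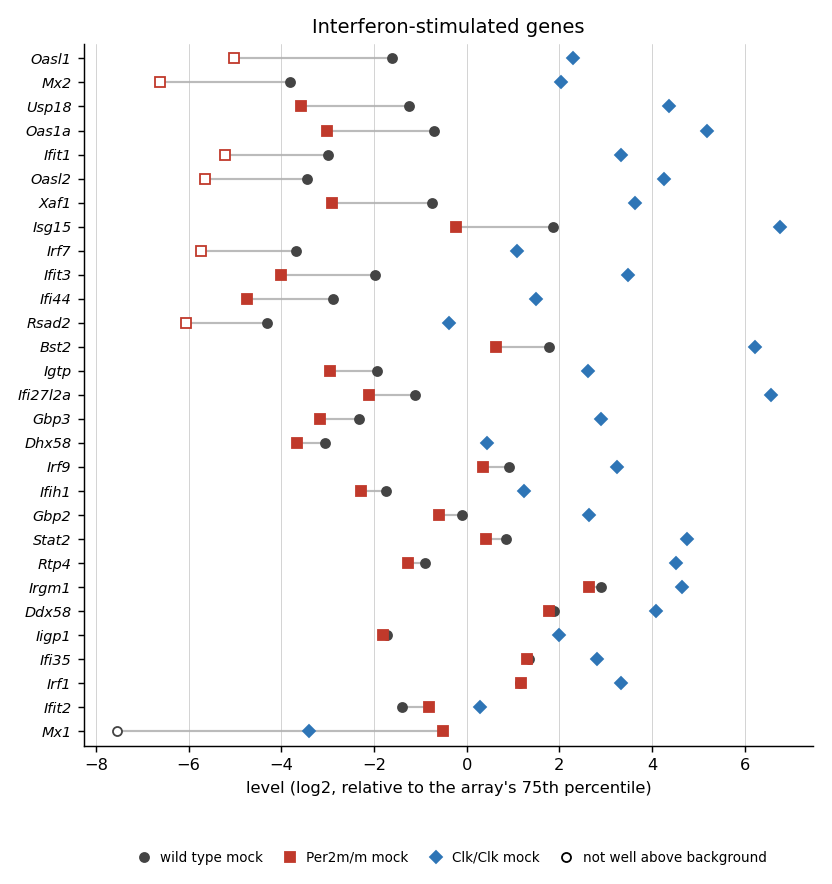
Levels of the 29 measured interferon-stimulated genes on the 3 mock arrays, 1 array each, in log2 relative to the array's 75th percentile, ordered by the Per2m/m minus wild type difference; open symbols are not well above background. Per2m/m levels lie left of wild type for 26 of 29 genes and Clk/Clk levels right of both for 28, while Mx1 runs from −7.54 in wild type to −0.50 in Per2m/m.

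Chemokines stood on both sides. Of 18 measured members 5 were higher by 2-fold or more and 4 lower, against 4.73% and 4.88% of all genes. The list median was 0.09, but −0.48 over the 15 members well above background on both arrays and −0.02 with normexp, so it has no settled sign. Ccl5, which draws T cells and monocytes and is induced together with interferon-stimulated genes, had 0.02 in wild type against −4.24 in Per2m/m cells, 19.1-fold lower. Cxcl10, another interferon-induced chemokine, was 2.12-fold lower, Ccl8 3.63-fold and Ccl7 2.44-fold. On the higher side stood Ccl6 at 5.66-fold, Ccl17 at 2.65-fold, Cxcl14 at 2.38-fold, Ccl4 at least 5.11-fold and Ccl11 (eotaxin) at least 4.66-fold. Of 7 measured cytokines 3 were higher and 2 lower (1 and 0 with normexp). Il6 had 1.84 and 3.25, 2.65-fold higher, Tslp was 2.50-fold and Lif at least 2.79-fold higher, while Il18 was 2.44-fold and Csf3 at least 2.48-fold lower. Of 12 genes of MHC class I presentation only Nlrc5, their transactivator, was 2-fold lower by measured value, with a bound of at least 1.52-fold.

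Macrophage markers were the list with the highest median. All 18 measured members were well above background in Per2m/m cells and 15 in wild type cells, against 9 on the Clk/Clk mock array. Of these, 11 were higher by 2-fold or more in Per2m/m cells and 0 were lower, against 4.73% and 4.88% of all genes, with a median difference of 1.38. With normexp 6 were higher and the median was 0.57, and among the 15 members well above background on both arrays, which leaves out those that entered through the Per2m/m array alone, 8 were higher and the median was 1.19. Fcgr3, an antibody receptor, had −6.25 in wild type, not well above background, and −2.51 in Per2m/m cells, at least 9.52-fold higher. Mrc1, the mannose receptor, was at least 5.76-fold higher. Fcer1g and Tyrobp, signalling adaptors of myeloid cells, had −1.47 and 0.36 and −1.59 and 0.21, 3.57-fold and 3.49-fold higher. The lysozyme genes Lyz1 and Lyz2 were 3.00-fold and 2.91-fold higher, the protease gene Ctss 3.16-fold, Mpeg1 and the scavenger receptor gene Msr1 both 2.76-fold, the membrane protein gene Laptm5 at least 2.47-fold, and Adgre1, a surface receptor that marks macrophages, 2.29-fold.

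Other markers of the same cells were level. Csf1r, the receptor for macrophage growth factor, had 2.06 and 2.12, and its 2 further probes differed by −0.09 and −0.20. Aif1 had −0.91 and −0.92, Ptprc (CD45) −3.92 and −4.00, and Itgam 5.22 and 5.26. The 2 further Itgam probes were far dimmer, at −4.18 and −4.44 and at −3.41 and −3.06 in wild type and Per2m/m cells. The summed level of the list on the linear scale was 48.6 in wild type, 59.6 in Per2m/m and 62.1 in Clk/Clk mock cells, a sum set mainly by the bright Itgam probe. By member, the Clk/Clk array was the lowest of the mock arrays for 15 of 18, with a median level of −4.46, and the Per2m/m array the highest for 14. In bulk RNA, more cells of a type and more RNA per cell cannot be told apart. The part of such cells in these values was not tested. Complement and acute phase genes stood on both sides, with 3 of 17 measured members higher, 3 lower and a median of 0.05 (1 and 1 with normexp). C1qa, a complement gene, had −3.36 in wild type against −0.70 in Per2m/m cells, 6.33-fold higher, C1qb was 2.10-fold higher and Lbp, which binds bacterial lipopolysaccharide, 3.65-fold. The complement genes C2, C4b and C1s1 were 2.57-fold, 2.40-fold and 2.17-fold lower. Cx3cr1, the fractalkine receptor gene and a member of no list, was 8.12-fold higher. Interferon-stimulated genes were lower and macrophage markers higher in the same culture.

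**Figure D4:**
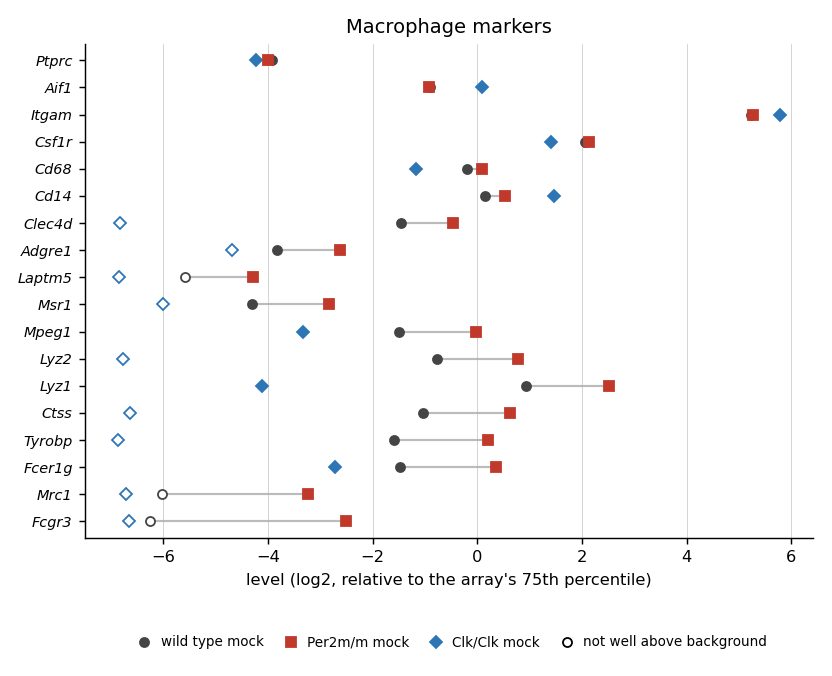
Levels of the 18 measured macrophage markers on the 3 mock arrays, 1 array each, in log2 relative to the array's 75th percentile, ordered by the Per2m/m minus wild type difference; open symbols are not well above background. Ptprc, Aif1, Itgam and Csf1r coincide in wild type and Per2m/m cells, and 11 markers from Adgre1 to Fcgr3 lie at least 2-fold to the right in Per2m/m cells.

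Markers of several other lineages included higher genes, but not every lineage list held more higher than lower genes. Of 15 measured adipogenic genes 1 was higher and 3 were lower, with a median of 0.17 (1 and 0 with normexp). Of 2 measured erythroid and mast cell markers 0 were higher and 1 was lower (0 and 0 with normexp). The counts in these lists stand beside 4.73% higher and 4.88% lower of all genes, and each list rests on few genes. Of 7 measured endothelial markers 2 were higher and 0 lower, Emcn (endomucin) at −3.53 in wild type against −0.28 in Per2m/m cells, 9.53-fold, and Cldn5, a tight junction protein, at least 11.8-fold. Among 12 epithelial genes the keratins Krt18, Krt7 and Krt19 were 5.61-fold, 5.14-fold and 2.25-fold higher and 0 were lower. Of 17 mesothelial and mesenchymal genes Msln and Lrrn4 were 4.99-fold and at least 3.55-fold higher, while Foxd1 was 2.36-fold lower. With normexp 1 of these 17 was higher and 0 were lower. Of 10 neural and glial genes 3 were higher and 1 lower. Sox10, a factor of glia and neural crest, was 4.28-fold higher, with S100b at 2.21-fold and Nes at 2.22-fold, and Tubb3 was 2.45-fold lower. Ngfr, the neurotrophin receptor p75 also found on neural crest cells, had −4.16 and 0.27 and was 21.6-fold higher, and the neurotrophin gene Ntf3 was 6.97-fold higher. The summed levels of these lists were 10.99 and 13.6 for endothelial, 8.95 and 12.8 for epithelial, 62.9 and 67.8 for mesothelial and 57.0 and 71.8 for neural and glial genes in wild type and Per2m/m cells. For fibroblast markers they were 2124 and 1960, and the part of other cell types in the differences was not tested.

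Cartilage, bone and tendon genes stood on both sides. Of 15 measured members 5 were higher and 2 lower, against 4.73% and 4.88% of all genes, with a median of 0.34. With normexp 2 were higher and 1 lower. Scx, the tendon transcription factor scleraxis, had 0.22 in wild type against 2.88 in Per2m/m cells, 6.33-fold higher, and Comp, a cartilage and tendon matrix protein, was 4.03-fold higher. Acan (aggrecan), Sp7 (osterix) and Col2a1 were 2.81-fold, 2.08-fold and 2.02-fold higher. Tnmd (tenomodulin), a marker of mature tendon cells, went the other way at 1.96 and 0.29, 3.17-fold lower. Of 17 skeletal muscle genes Des (desmin) was 3.24-fold and Actc1 at least 4.40-fold higher and 0 were lower. Of 20 contractile genes, 2 were higher, the same Des and Actc1, and Synpo2 was 2.03-fold lower, with a median of 0.06. Another Synpo2 probe differed by only −0.09, and with normexp 1 contractile gene was higher and 0 were lower. The bright smooth muscle genes in this list were level, with Acta2 at 9.34 and 9.42 and Tagln at 9.30 and 9.32.

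Of 24 collagen genes 5 were lower by 2-fold or more and 2 higher, against 4.88% and 4.73% of all genes, and 3 were lower and 2 higher when arrays were scaled to their median. In all, 19 were below 0 and the median was −0.44 (−0.24 under the alternative that gave the smallest shift). Col5a3 had 4.10 in wild type against 1.14 in Per2m/m cells, 7.80-fold lower. Col6a2 and Col6a1, which form the same collagen VI microfibril, were 2.85-fold and 2.03-fold lower, and Col3a1, found with type I collagen in fibrils, 2.09-fold. The type I genes were less than 2-fold apart, with Col1a2 at 9.40 and 8.85. Col10a1 and Col2a1, both of cartilage, were the 2 higher genes.

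Of 31 proteoglycan and elastic fibre genes 8 were lower and 2 higher, against 4.88% and 4.73% of all genes, with a median of −0.17. With normexp 6 were lower and 0 higher. Dcn (decorin) and Lum (lumican), small proteoglycans that bind collagen fibrils, had 4.42 and 2.03 and −0.96 and −4.11, 5.24-fold and 8.86-fold lower. Fmod and Aspn, of the same leucine-rich family, were 2.24-fold and 2.08-fold lower, and Prelp at least 1.85-fold. Mfap4, an elastic fibre protein, was 4.41-fold lower, Thbs2 3.19-fold and Postn (periostin) 2.35-fold. Acan was 2.81-fold and its link protein Hapln1 at least 3.88-fold higher. Other small proteoglycans of this family were within 2-fold, with Bgn (biglycan) at −0.07, Ogn at 0.03 and Omd at 0.81, so the family was not lower as a whole.

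Of 23 matrix protease and inhibitor genes 4 were lower and 0 higher, against 4.88% and 4.73% of all genes, 19 were below 0 and the median was −0.61. With normexp 2 were lower. Mmp10 and Mmp13, a stromelysin and a collagenase, had −0.90 and −4.08 and 0.37 and −2.71, 9.03-fold and 8.47-fold lower, Mmp19 was 2.24-fold lower and Mmp9 at least 1.5-fold. Abi3bp, a matrix protein that binds cells, was 10.9-fold lower. In transfected cells the lists of collagens, proteoglycans and proteases were also lower in Per2m/m, with medians of −1.52, −1.53 and −1.93, beside 0.06 for all genes. Lower medians there were not particular to lists that were lower in mock cells. Of lists near 0 in mock cells, contractile genes (−3.40) and the TGF-beta pathway (−2.72) were lower there and clock output genes (0.42) higher.

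Mitosis genes were higher in every measured member, mostly by less than 2-fold. All 25 measured genes were above 0, from 0.19 for the motor gene Kif11 to 1.31 for Cenpa, with a median of 0.49, while 8430 of all 16150 genes were above 0. Cenpa, the histone of the centromere, had 1.63 in wild type against 2.95 in Per2m/m cells, 2.49-fold higher. Plk1, a kinase that drives mitotic entry, had 3.83 and 5.08, 2.39-fold higher, and Kif20a, a motor of cell division, 2.99 and 4.17, 2.25-fold higher. The Per2m/m array was the highest of the 3 mock arrays for 22 of 25. Mki67, the proliferation antigen, had 3.98 and 4.38 and Ccnb1, a cyclin of mitosis, 3.02 and 3.38. The median kept to between 0.49 and 0.55 under every scaling, background and filter setting tried, and all measured members remained above 0.

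Of 35 measured DNA replication genes 0 were 2-fold apart, 15 were above 0 and the median was −0.05, with Mcm2, a helicase subunit, at 2.65 and 2.31 and Pcna, the sliding clamp, at 5.24 and 5.13. Prim2, a primase subunit that the list does not hold, was 14.6-fold lower by its brighter probe, and its second probe differed by −0.97. Ccnd1 (cyclin D1), which drives cells out of G1, was 2.08-fold higher at 4.30 and 5.36, and Cdkn2b, the inhibitor p15, was 3.28-fold lower at 4.00 and 2.28, with a further probe at −0.62. Of 24 p53 targets only Perp, a membrane protein of apoptosis and cell adhesion, was 2-fold apart, 4.30-fold higher. That is 4.17% of the list, near the 4.73% of all genes that were higher. In transfected cells the mitosis median was −0.53.

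Aldehyde dehydrogenases were the family of Aldh3a1, an enzyme that oxidises aromatic and lipid-derived aldehydes. In mock cells Aldh3a1 had 1.81 in wild type and 1.91 in Per2m/m, a ratio of 1.07, against 1.18 and 6.53 in transfected cells. Of 19 measured family members 3 were higher and 0 lower (2 and 0 with normexp), against 4.73% and 4.88% of all genes. All 3 make retinoic acid or are close relatives of such enzymes: Aldh1a2 had −3.94 and −1.32, 6.13-fold higher, Aldh1a7 −3.17 and −1.42, 3.38-fold higher, and Aldh1a1 −2.22 and −1.07, 2.23-fold higher. Aldh1a3, of the same subfamily, stood on the other side at −1.30 and −1.95. Aldh1a1 and Aldh1a7 are close in sequence, so their probes may share signal.

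Detoxification genes around this family were mostly within 2-fold, and the counts here stand beside 4.73% higher and 4.88% lower of all genes. Of 28 NRF2 targets, which answer to oxidants, only Nqo1, a quinone reductase, was apart, with 2.2 and 1.12, 2.10-fold lower. Of 8 genes of the aryl hydrocarbon receptor and its targets, Nqo1 and Ahrr, a repressor of that receptor, were lower (2.08-fold for Ahrr), 7 were below 0 and the median was −0.53. Gsta2, a glutathione transferase, was 4.80-fold lower and Gstt2 and Gsto2 were 2.59-fold and 2.56-fold higher among 20 such genes and glucuronosyltransferases. Of 10 efflux transporters Abcc6 was at least 4.68-fold higher and Abcc3 2.08-fold lower. With normexp 0 of the NRF2 targets, the aryl hydrocarbon receptor genes and the efflux transporters were 2-fold apart.

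WNT genes spread widely around a median of −0.07, with 5 of 25 higher and 3 lower, against 4.73% and 4.88% of all genes. With normexp, and also among the 21 members well above background on both arrays, 2 were higher and 2 lower. Wnt10a was at least 26.6-fold and Wnt10b 2.72-fold higher, and Axin2, a target and inhibitor of the canonical pathway, had −7.36, not well above background, and −3.54, at least 4.65-fold higher. Frzb, a secreted antagonist, was at least 4.49-fold and Wnt5b 2.49-fold higher. Wnt2 was at least 4.76-fold, Wnt4 3.51-fold and the antagonist Dkk3 2.71-fold lower. Of 13 IGF genes, Igfbp3, which binds IGF in the medium, was 5.77-fold and Igfbp2 2.23-fold lower and Igf2bp1 2.27-fold higher. Of 22 imprinted genes 5 were higher and 1 lower (2 and 0 with normexp), with Dlk1 at 2.72-fold, Zim1 at 2.55-fold, Mest at 2.37-fold and Plagl1 and Peg3 both at 2.03-fold higher, and Dio3 at least 3.60-fold lower. HOX genes, the homeobox factors of body position, had 3 of 35 higher and 3 lower (8.57% each way), among them Hoxb13 at 3.01-fold lower and Hoxb8 at 2.23-fold higher, but 0 with normexp. Hoxd11 was lower by measured value, but its direction turned without the filter on dim probes, where another probe stands for it.

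**Figure D5:**
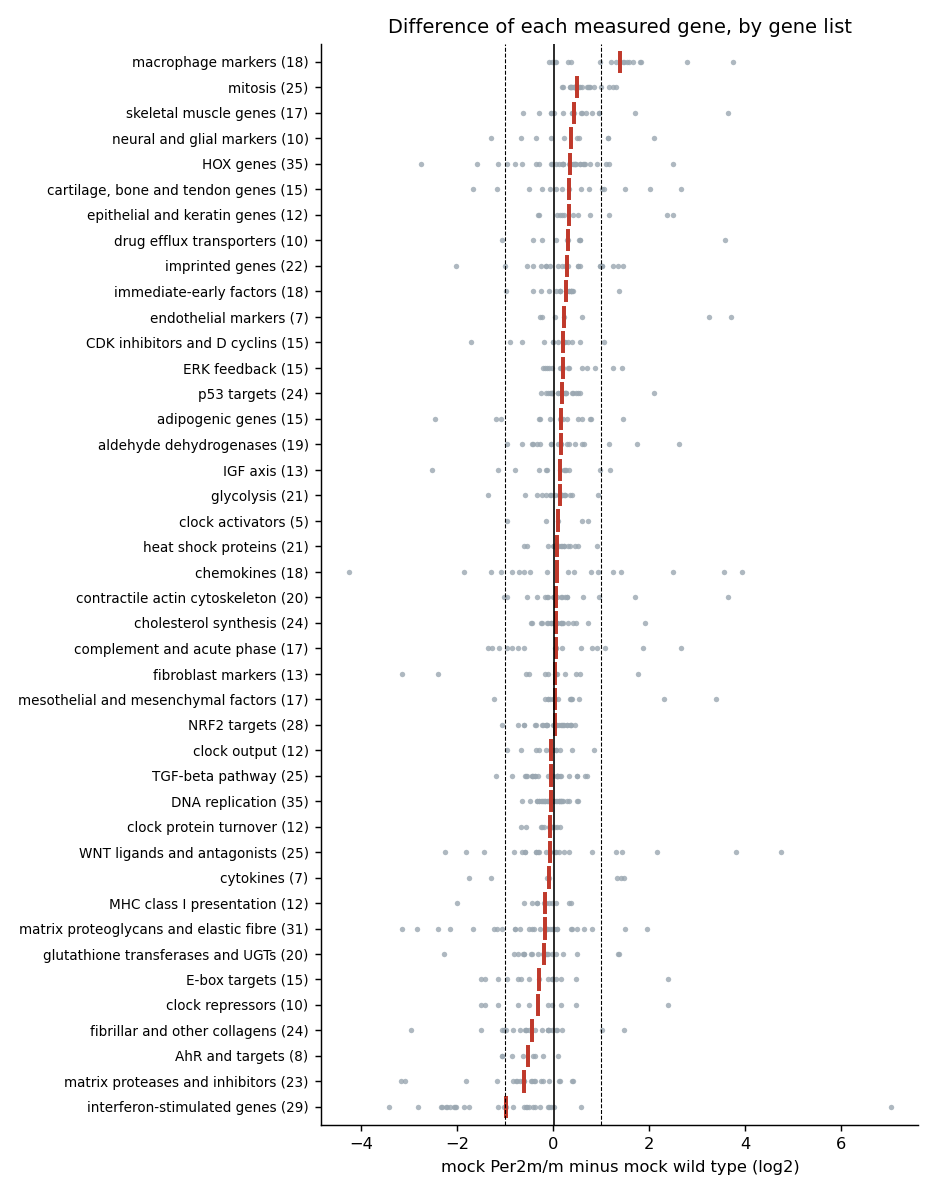
Difference of each measured gene (grey points, mock Per2m/m minus mock wild type, log2) in each list with at least 5 measured members, with the list median in red and the number of measured genes in brackets. The solid line is the median of all genes (0.02) and dashed lines mark 2-fold; interferon-stimulated genes have the lowest (−0.99) under these settings and macrophage markers the highest (1.38) median.

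Heat shock and glycolysis genes were nearly level, with medians of 0.09 and 0.14. Of 21 heat shock genes 0 were 2-fold or more apart, and of 21 glycolysis genes only Eno2 (2.54-fold lower). Of 25 genes of the TGF-beta pathway only Grem1, a BMP antagonist, was apart, 2.27-fold lower. Of 15 ERK feedback genes Spry4 and Etv1 were 2.69-fold and 2.39-fold higher, and of 18 immediate-early genes Nr4a2 was 2.60-fold higher. All counts in this paragraph stand beside 4.73% higher and 4.88% lower of all genes. The single genes apart among immediate-early (5.56% higher), TGF-beta (4% lower) and glycolysis genes (4.76% lower) are near those shares.

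By size alone, the genes furthest apart came from many functions. Beside Ngfr, Emcn, Cx3cr1 and Ntf3, those furthest higher and seen on both arrays were Olfr1168 (10.4-fold), Cep85 (9.88-fold), Kctd12b (9.85-fold), Nt5e (8.93-fold), Lce1f (8.15-fold), Lingo2 (8.07-fold), Angptl7 (7.05-fold) and Asb5 (6.91-fold). Nt5e encodes CD73, which makes adenosine outside the cell, and had −2.50 in wild type against 0.66 in Per2m/m cells. Cep85 is a centrosome protein, and its levels of −3.15 and 0.16 were reversed in transfected cells at −2.19 and −4.16. Among genes not well above background in wild type cells, the furthest were Olfr1177-ps (at least 77.1-fold), Tescl (39.5-fold), Tph1 (39.4-fold), Pm20d2 (39.2-fold), Mx1, Meox1 (32.9-fold) and Olfr357 (31.4-fold). Pak7 was at least 54.1-fold higher by its brightest probe, but another Pak7 probe was well above background on both arrays, at −4.21 and −3.61, a difference of 0.61, so its probes disagree. Tph1 starts serotonin synthesis and Meox1 is a homeobox factor of somites.

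The furthest lower gene was Tmem41b, an endoplasmic reticulum protein, with 3.37 in wild type against −3.93 in Per2m/m cells, 158-fold lower by a probe on chromosome 7 at 117117001 to 117117060 (mm9). A second Tmem41b probe had −2.08 and −2.28, so the probes disagree. On the Clk/Clk mock array and both transfected arrays of wild type and Per2m/m cells the first probe stood between 2.81 and 3.12, which leaves the mock Per2m/m array alone as low. Syt13, a synaptotagmin, had 3.32 and −1.05, 20.8-fold lower, and was also at least 139-fold lower in transfected Per2m/m cells. Ndufa4l2 was 14.6-fold, Nrn1 13.4-fold, Pcp4l1 12.6-fold and Arl16 9.21-fold lower, and Sgca, a sarcoglycan, stood at −0.72 and −4.14. Among genes not well above background in Per2m/m cells, AW549542 was at least 41.3-fold, Pate9 32.9-fold, Nlrp9b 22-fold, Trim12a 15.8-fold, Clec2h 10.1-fold, Pianp 9.69-fold and Ache, acetylcholinesterase, 8.13-fold lower.

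The genes apart in mock cells were looked up in transfected cells. Of the 764 genes higher in mock Per2m/m cells 14.0% were also higher by 2-fold or more in transfected Per2m/m cells, which is 4.17% of the genes higher there, and 137 (17.9%) were lower. Of the 788 lower genes 205 (26.0%) were also lower, which is 7.27% of the genes lower there, and 149 (18.9%) were higher. Of the 15823 genes measured in transfected cells 16.2% were higher and 17.8% lower. The 764 and 788 mock genes include some, such as Ngfr, that were not measured in transfected cells and could not count there. The shares of mock genes therefore cannot be ranked against those of all genes.

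By position, 12.1% of measured genes within 10 Mb of Per2 on chromosome 1, Per2 included, were 2-fold or more apart, 6 higher and 7 lower, against 9.61% of all genes. With normexp the share was 4.67%, against 3.08% of all genes. Klhl30 and Ackr3 near Per2 were 3.83-fold and 2.05-fold higher, and Gal3st2 6.18-fold lower. Of 6 measured genes on the Y chromosome 5 were lower. Ddx3y had 1.40 in wild type against −0.05 in Per2m/m cells, 2.72-fold lower, Eif2s3y 0.88 and −0.81, 3.21-fold lower, and Uty was at least 1.94-fold lower. Xist, which silences an X chromosome, had −1.02 and −0.53. Both mock cultures thus carried Y-linked and Xist signal, while Xist was not well above background in mock Clk/Clk cells, and the part of the sex of the embryos in the other differences was not tested.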

How the data were processed

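Each deposited scanner file holds 1 linear fluorescence intensity for every spot. It was background-subtracted and detrended by Feature Extraction 10.7.1.1, per the file headers, while the submitters' processing notes name Agilent Feature Extraction 9.5.1.1, and coordinates are those of build mm9. The authors' deposited table of the series, also intensity, held the same sorted values in every column, as quantile-normalized data do, and was used as an alternative. Spots marked as outliers were left out (85 and 124 of 59305 on the mock arrays), 0 were saturated, spots of a probe were averaged, and log2 minus the array's 75th percentile was taken. Probes well above background on any of the 6 arrays were kept, and the brightest kept probe stands for a gene. RefSeq accessions named 27235 probes, symbols 3581 and synonyms 565, the file's own name was kept for 1365, and 22935 stayed unnamed.

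With 1 array per group no test was made. Genes were counted at 2-fold or more, and lists by counts and medians. Steps were tested on simulated data. Named genes were Per2, Clock and Aldh3a1, the 12 furthest apart in each direction on both arrays, the 8 furthest by bound in each direction (predicted genes left out), and up to 5 members of each list by size among those 2-fold or more apart; other members are given only with their values. The 44 lists, their members and the comparison were chosen with earlier results of these data known, so no list is independent evidence. Promoter letters come from RefSeq (GRCm38.p6). Tools were limma 3.58.1 (R 4.3.3), and numpy 2.4.6, pandas 2.3.3 and matplotlib 3.10.9 (Python 3.11.15).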

Additional observations from a re-analysis of the deposited data

Results flagged for a closer look

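Several single genes had differences between Per2m/m and wild type cells that ran in opposite directions in mock and in transfected cells, at 2-fold or more in both. The difference between the mock and the transfected values was not tested, since each is a ratio of 1 array to 1 array. Cep85 was higher by 3.30 in mock Per2m/m cells and stood at −1.96 in transfected cells. Nt5e was higher by 3.16 in mock cells and at least 2.44 lower (−2.44) in transfected cells. Prim2 stood at −3.87 and 1.65, AW549542 at −5.37 by its bound and 2.08, Oasl1 at −3.38 by its bound and 4.03, and Pianp at −3.28 by its bound and 3.95. The median of interferon-stimulated genes also changed direction, though under 2-fold in both, at −0.99 in mock and 0.88 in transfected cells.

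Probes without a gene name entered no comparison above. Of 22935 such probes 10261 were measured on the mock arrays, and 14.2% of these were 2-fold or more apart, 497 higher and 958 lower in Per2m/m cells. The share was 9.61% for named genes, but the units differ. Unnamed probes were counted singly, while each named gene was read by its brightest kept probe.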

How the results depend on the processing

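No paired analysis was possible because each group held 1 array. With normexp the 2-fold counts became 295 higher and 202 lower (59.4% of calls higher, against 49.2%), the share near Per2 4.67%, and the medians −0.17 for clock repressors, −0.40 for matrix proteases, −0.49 for interferon-stimulated genes and 0.57 for macrophage markers. Of the 1552 genes 2-fold apart, 493 (31.8%) were so with normexp, 0 of them in the opposite direction. With genes well above background on both mock arrays only, 441 were higher and 383 lower, with medians of −0.12 for clock repressors, −0.59 for interferon-stimulated genes and 1.19 for macrophage markers; fewer genes are tested there. Without the filter 1307 were higher and 1406 lower, the interferon median was −0.83, and Hoxd11 turned to 0.19. With the mean of all kept probes the medians were −0.26 for matrix proteoglycans and −0.46 for matrix proteases. With dim genes at their bound, chosen after seeing the data, 507 were lower (59.7% of calls higher) and the interferon median was −0.83. Normexp was run with an offset of 50 added to every spot, beside median background-subtracted signals of 27.1 on the wild type and 28.9 on the Per2m/m array. Such an offset makes the ratios of dim spots smaller by construction. How much of the normexp moves it accounts for, and the cause of the other moves, was not tested. Scaling to the median (814 higher, 715 lower), quantile normalization (784 and 695) and the authors' deposited table (786 and 697) kept both counts within 1.5 times. The number of arrays and the weak signal of dim genes limit every value.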
